A study of Homo sapiens with 6 samples.

Results

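The 50 genes described here are nuclear genes whose proteins copy, package and transcribe mitochondrial DNA, or cut, modify, stabilise, decay and translate the RNA made from it. They were chosen by name for these roles, and all 50 were matched to the 60604 genes of the count tables. RNA was measured by total RNA sequencing, with ribosomal RNA depleted, in AGS cells, a human line grown from a gastric adenocarcinoma. In 3 indomethacin libraries the cells had 0.5 mM of indomethacin for 24 h, and in 3 control libraries the treatment label gives 0 mM and no time or vehicle. Indomethacin is a non-steroidal anti-inflammatory drug that inhibits cyclooxygenases. The control libraries come from the same line, without genetic change by the labels. The labels do not say that libraries of a group came from separate cultures, and p-values here cover only the spread from library to library, possibly a technical one.

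Mitochondrial DNA is a small circle that is packed into nucleoids, copied by its own polymerase and read by its own RNA polymerase into long transcripts. Those transcripts are cut at the transfer RNAs between the coding sequences, and the pieces are modified, given tails, bound by stabilising proteins, translated and degraded. Every protein of these steps is imported, so the cell makes the organelle's gene expression machinery from nuclear genes.

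Total counts were 17535435 to 20094302 in the indomethacin libraries and 20983189 to 23221077 in the control libraries. Genes of the mitochondrial genome held 16.7% to 19.7% of the counts in indomethacin and 22.8% to 26.8% in control. The epithelial markers fixed for the cells summed to 3125 to 3455 CPM in indomethacin and 3571 to 4119 CPM in control (CPM, library sizes corrected by TMM). Endothelial markers summed to 0.240 to 0.523 CPM in indomethacin and 0.375 to 0.490 CPM in control, and fibroblast markers to 9.61 to 11.5 and 6.52 to 8.62 CPM in indomethacin and in control. The leukocyte list summed to 118 to 125 CPM in indomethacin and 599 to 1366 CPM in control, nearly all of it from LYZ, the lysozyme gene, which gastric epithelium also makes. Each of the 7 epithelial markers had at least 1365 counts in every library, while the leukocyte genes PTPRC, CD3E and CD68 had at most 8 in any. Within these sums single markers moved in both directions. By log2 fold change, indomethacin over control, the epithelial CLDN4 rose (1.70), and EPCAM (-0.68), KRT8 (-0.55) and CDH17 (-1.38) fell. Of the fibroblast markers COL1A1 rose (1.02) and PDGFRB fell (-4.52). The part of these differences in the results below was not tested. Levels are relative within a library of bulk RNA, so fewer cells making an RNA and less RNA per cell cannot be told apart.

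Most of the genes were lower in the indomethacin libraries, with TFAM, MGME1, PRORP and SLIRP furthest down, while the main polymerases of the organelle, POLG and POLRMT, did not pass the test. Of the 50 genes 49 had enough counts to be tested, and 32 of these fell, which is 65.3%, and 2 rose (adjusted p under 0.05 in the quasi-likelihood test of edgeR, with Benjamini-Hochberg adjustment across the whole table). Over all 17200 genes tested, 61.6% were called in either direction, 31% lower and 30.6% higher. Counts of falls and rises by role, family or list below stand beside these shares, and no list was tested as a set. The median log2 fold change, indomethacin over control, was -0.52 over the 49 genes and 0.04 over all genes tested. The indomethacin and control libraries did not overlap in 41 of the 49 genes, against 67% of all genes tested. Of the 32 genes that fell, 8 were at least 2-fold lower, and 10 of all the genes called changed by less than 1.5-fold. With upper-quartile scaling, which moved the median of all genes by 0.12, 29 fell and 4 rose. No call changed direction under any alternative tried.

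**Figure D1:**
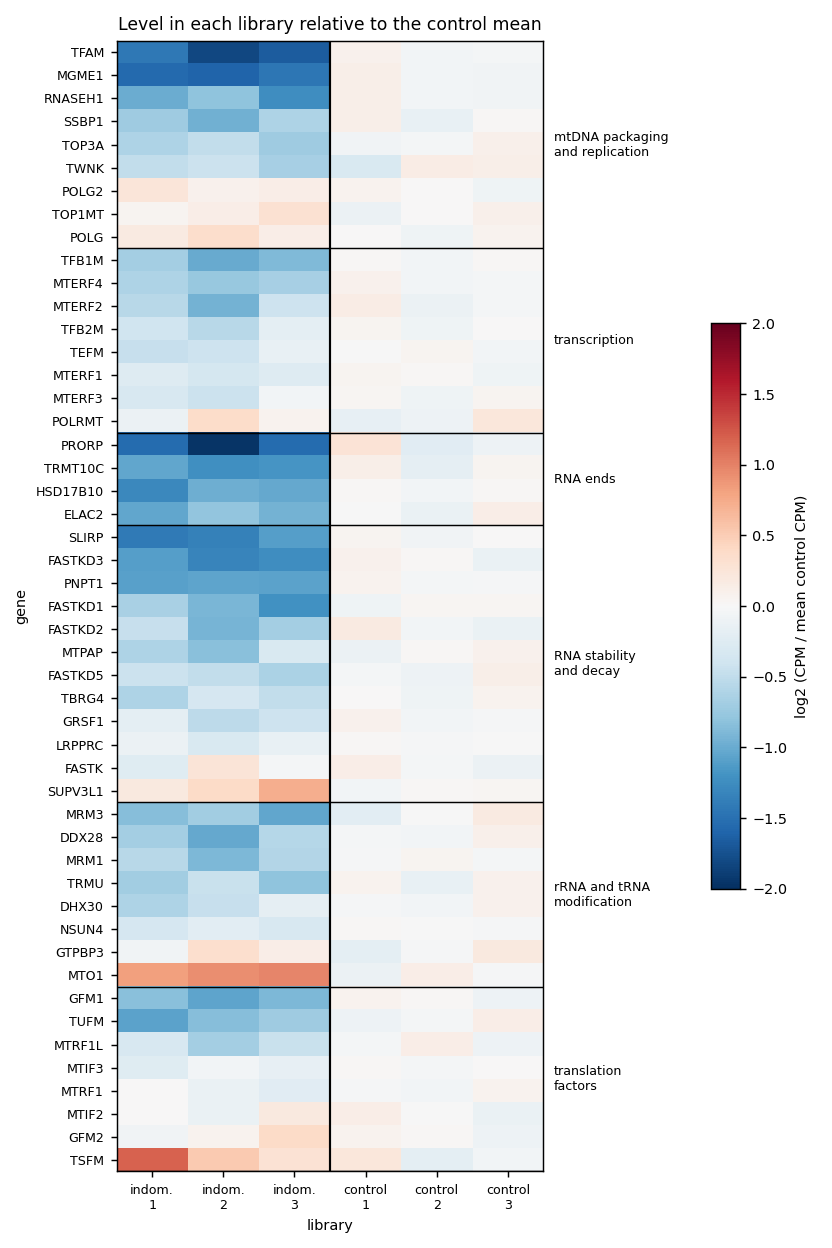
Level of each of the 49 genes tested in each library, as log2 of its CPM over the mean CPM of the control libraries, with indomethacin libraries left of the line and control libraries right of it. Genes are grouped by role, and blue is below and red above the control mean. Blue fills most rows of the indomethacin columns. The rows of MTO1, SUPV3L1 and TSFM are on average the reddest there, and some others are faintly red.

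Promoter sequence is shown for 6 genes, because they are partners or paralogs of which some fell and others did not pass the test. TFAM, POLRMT and TFB2M start mitochondrial transcription, TFB1M is a paralog of TFB2M, and GFM1 and GFM2 are related GTPases of translation. RefSeq promoter windows of build GRCh38.p14, from 250 bases before to 50 bases after a start site, were matched to 45 of the 50 genes by symbol. TWNK, TOP1MT, MTERF3, FASTKD5 and MTO1 had no match and are not shown. Each sequence is given 5′ to 3′ on the strand of its gene, and capitals mark a match, on either strand, to one of 4 motifs: GCGCATGCG for NRF1, CCGGAAG for GABP, AAGATGGC for YY1 and the E-box CACGTG. The forward and reverse matches of the NRF1 motif overlap each other in POLRMT and in TFB1M, and no motif overlaps another one in these windows.
TFAM (chr10:58385160-58385459, plus strand): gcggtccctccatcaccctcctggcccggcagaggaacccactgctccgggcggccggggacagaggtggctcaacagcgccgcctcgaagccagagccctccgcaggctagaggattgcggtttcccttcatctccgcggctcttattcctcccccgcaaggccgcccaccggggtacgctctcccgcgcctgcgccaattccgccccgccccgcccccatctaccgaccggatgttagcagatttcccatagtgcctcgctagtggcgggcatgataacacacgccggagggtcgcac
POLRMT (chr19:633488-633787, minus strand): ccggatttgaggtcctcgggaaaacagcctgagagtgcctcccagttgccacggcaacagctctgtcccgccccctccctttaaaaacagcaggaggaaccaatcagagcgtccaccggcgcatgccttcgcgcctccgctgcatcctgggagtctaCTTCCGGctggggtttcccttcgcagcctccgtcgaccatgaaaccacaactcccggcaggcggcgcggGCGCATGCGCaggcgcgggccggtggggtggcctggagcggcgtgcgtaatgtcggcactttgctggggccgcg
TFB2M (chr1:246566212-246566511, minus strand): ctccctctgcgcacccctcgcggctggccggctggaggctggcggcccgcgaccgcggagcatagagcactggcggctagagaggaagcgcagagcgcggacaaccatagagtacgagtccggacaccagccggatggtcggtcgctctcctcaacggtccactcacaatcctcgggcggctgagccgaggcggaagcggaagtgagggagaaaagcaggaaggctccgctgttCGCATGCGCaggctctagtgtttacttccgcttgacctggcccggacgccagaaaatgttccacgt
TFB1M (chr6:155314435-155314734, minus strand): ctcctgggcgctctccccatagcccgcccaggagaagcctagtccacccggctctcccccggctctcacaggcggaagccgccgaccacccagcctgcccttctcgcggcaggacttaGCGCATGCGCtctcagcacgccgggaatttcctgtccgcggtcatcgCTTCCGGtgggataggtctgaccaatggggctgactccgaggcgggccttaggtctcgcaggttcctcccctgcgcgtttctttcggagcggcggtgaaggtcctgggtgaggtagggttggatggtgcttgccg
GFM1 (chr3:158644277-158644576, plus strand): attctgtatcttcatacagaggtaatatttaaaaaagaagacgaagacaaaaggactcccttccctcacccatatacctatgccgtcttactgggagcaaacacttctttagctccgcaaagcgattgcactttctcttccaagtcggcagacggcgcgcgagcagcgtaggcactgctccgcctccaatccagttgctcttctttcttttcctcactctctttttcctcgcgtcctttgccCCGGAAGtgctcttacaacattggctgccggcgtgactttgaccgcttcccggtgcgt
GFM2 (chr5:74767068-74767367, minus strand): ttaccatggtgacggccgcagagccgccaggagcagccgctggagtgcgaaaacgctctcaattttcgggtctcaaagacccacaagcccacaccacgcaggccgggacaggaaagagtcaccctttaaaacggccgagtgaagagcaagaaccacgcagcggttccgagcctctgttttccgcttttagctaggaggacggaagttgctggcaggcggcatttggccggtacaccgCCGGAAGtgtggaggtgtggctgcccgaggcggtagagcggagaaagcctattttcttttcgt

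NRF1 and GABP are transcription factors known to act on many nuclear genes for mitochondrial proteins. The NRF1 motif was in a window of 5 of the 45 genes (11.1%), namely POLRMT, TFB1M, TFB2M, MTPAP and MRM1, against 2.34% of 27305 genes with a window and 4.12% of the tested genes with one. The GABP motif was in 21 of 45 (46.7%), against 12.2% of all genes and 21.6% of tested genes. YY1 letters were in 6 of 45 (13.3%), against 3.52% of all and 6.26% of tested genes. The E-box was in 1, MRM1 (2.22%), against 8.77% of all and 12% of tested genes. Of 20 tested genes with the GABP letters 13 fell, with a median log2 fold change of -0.56, and of 24 without them 17 fell, with a median of -0.61. With the YY1 letters 5 of 6 tested genes fell, with a median of -0.92, and without them 25 of 38, with a median of -0.52. With the NRF1 letters 4 of 5 fell, with a median of -0.57, and without them 26 of 39, with a median of -0.62. These differences were not tested. GFM1 and GFM2 both carry the letters upstream of the start site and only GFM1 passed the test, and POLRMT and TFB1M both carry the NRF1 and GABP letters and only TFB1M passed it. TFAM held none of the 4 motifs in these 300 bases. A match is a description of letters and not of binding, and a window without one says only that these letters are not in it.

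Of 9 genes for packaging and replication of mitochondrial DNA 6 fell, none rose, and the median log2 fold change was -0.60. TFAM (ENSG00000108064, chr10:58385345-58399220 on build hg38), which coats and compacts mitochondrial DNA and bends its promoters, had 34.1, 26.0 and 29.0 CPM in the indomethacin libraries, against 97.4, 88.0 and 89.1 CPM in the control libraries. Every indomethacin library lay far below the lowest control library. TFAM averaged 29.7 ± 4.10 CPM in indomethacin and 91.5 ± 5.12 CPM in control (SD, n = 3 each), 3.08-fold lower (log2 fold change -1.62, SE 0.12; edgeR adjusted p = 6.19e-08). MGME1 (ENSG00000125871, chr20:17969018-17991122), the exonuclease that trims single-stranded ends left by replication, had 15.9, 15.4 and 17.1 CPM in indomethacin and 50.3, 44.8 and 44.5 CPM in control. It fell 2.88-fold (-1.53, SE 0.11; edgeR adjusted p = 7.08e-08), with groups as widely apart as those of TFAM.

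The other genes of replication that fell moved less. SSBP1, the protein that covers single-stranded mitochondrial DNA, had 50.5, 42.7 and 54.3 CPM in indomethacin and 90.2, 74.6 and 84.0 CPM in control (log2 fold change -0.76, SE 0.12; edgeR adjusted p = 8.41e-05). RNASEH1, which removes RNA from RNA-DNA hybrids and so clears primers, had 5.89, 6.66 and 4.93 CPM in indomethacin and 12.6, 11.2 and 11.2 CPM in control (-1.0, SE 0.17; edgeR adjusted p = 0.000136). Neither gene's groups overlapped. TOP3A, a topoisomerase that separates linked daughter circles, and TWNK, the replicative helicase, fell by 0.60 and 0.52 on the log2 scale. The catalytic subunit POLG of the DNA polymerase was at 0.23 on that scale (edgeR adjusted p = 0.0839), its accessory subunit POLG2 at 0.16 and the topoisomerase TOP1MT at 0.17, and none of these passed the test. So of the 4 proteins that copy the circle in a test tube, POLG, POLG2, TWNK and SSBP1, the last 2 fell. POLG passed as higher with upper-quartile scaling and with a filter of 1 CPM, TOP1MT as higher with upper-quartile scaling, and 458 of the 7699 exonic bases of POLG overlap the opposite-strand gene FANCI, which fell by 2.09.

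Among the transcription genes the polymerase itself did not pass the test. POLRMT (ENSG00000099821, chr19:617221-633537), the RNA polymerase that reads mitochondrial DNA and primes its replication, had 30.0, 42.0 and 34.2 CPM in indomethacin and 29.1, 30.1 and 38.0 CPM in control. The groups overlapped, and the log2 fold change of 0.13 (SE 0.14; edgeR adjusted p = 0.463) was within its error. Of the 8 transcription genes 4 fell (50%, against 31% of all genes tested), none rose, and the median was -0.36. TFB1M (ENSG00000029639, chr6:155256134-155314493), which methylates the small ribosomal RNA, had 11, 8.80 and 9.55 CPM in indomethacin and 18.0, 17 and 18.1 CPM in control (-0.85, SE 0.14; edgeR adjusted p = 0.000106). Its paralog TFB2M, which opens the promoters for the polymerase, had 17.3, 15.6 and 19.9 CPM in indomethacin and 23.9, 21.6 and 23.1 CPM in control (-0.38, SE 0.13; edgeR adjusted p = 0.0193). Both paralogs fell without overlap of the groups. TFB2M lost its call with upper-quartile scaling and without indomethacin library 2 (adjusted p between 0.00386 and 0.0864 over 14 alternatives, DESeq2 and limma-voom among them), and 30.7% of the exonic bases of TFB1M overlap TIAM2 on the opposite strand.

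The MTERF family, helical repeat proteins that bind mitochondrial nucleic acids, fell in 2 of 4 members, too few to compare with the 31% of all genes tested. MTERF4, which works with the methyltransferase NSUN4 on the large ribosomal subunit, had 14.4, 13 and 13.9 CPM in indomethacin and 23.4, 21.3 and 21.4 CPM in control (log2 fold change -0.68, SE 0.12; edgeR adjusted p = 0.000262). MTERF2 had 4.80, 3.68 and 5.29 CPM in indomethacin and 7.80, 6.53 and 6.85 CPM in control (-0.62, SE 0.19; edgeR adjusted p = 0.0128), and lost its call without indomethacin library 2 (adjusted p between 0.00233 and 0.0595 over 14 alternatives). Shared exons bear on both: 51% of the exonic bases of MTERF4 overlap SNED1 and 11.6% of those of MTERF2 overlap TMEM263, each on the opposite strand. MTERF1, which binds a termination site behind the ribosomal RNA genes, had a log2 fold change of -0.29, MTERF3 had -0.26 and the elongation factor TEFM -0.34, and none passed the test. Over the 14 alternatives MTERF3 had adjusted p between 0.0443 and 0.41 and TEFM between 0.0477 and 0.271, each passing as lower without indomethacin library 3 alone.

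**Figure D2:**
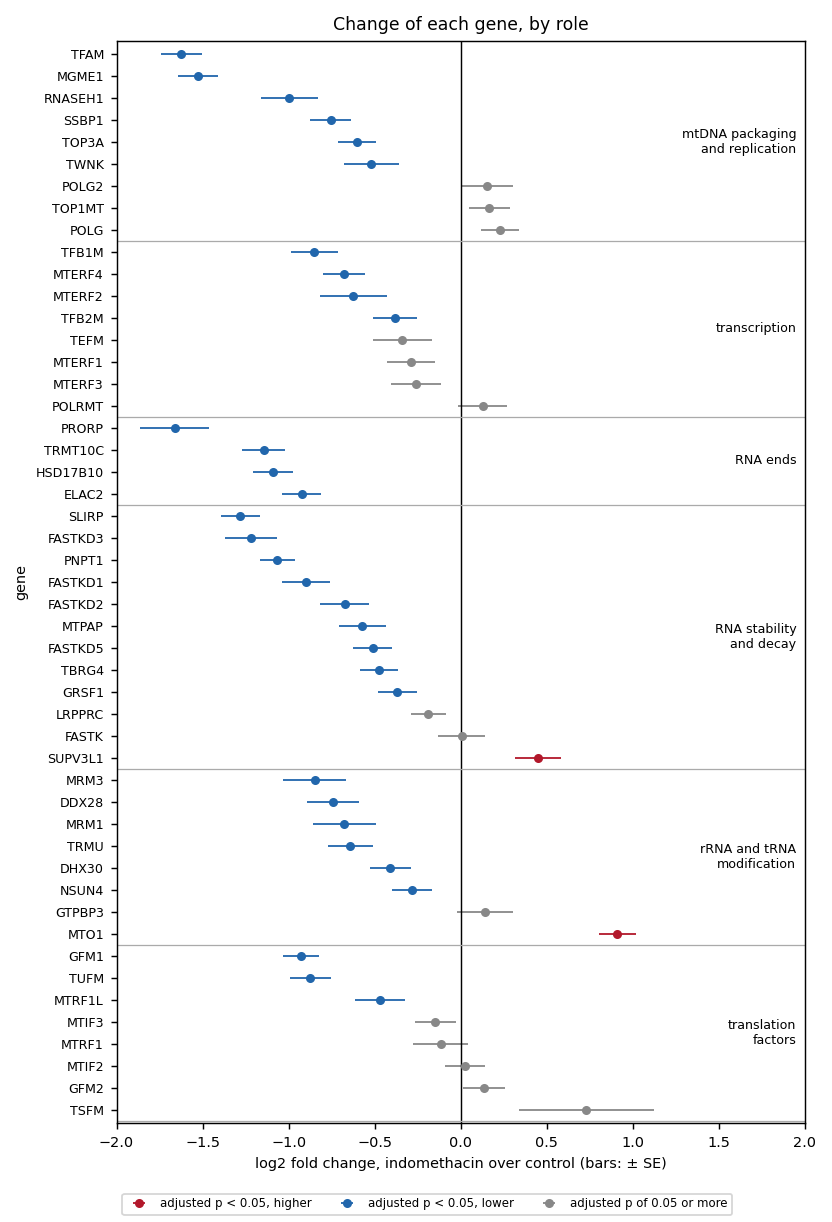
Log2 fold change, indomethacin over control, of each of the 49 genes tested with its standard error, grouped by role and coloured by the call at an edgeR adjusted p of 0.05. All 4 genes of RNA end cleavage lie between -1.66 and -0.92, while the translation factors spread from -0.93 to 0.73.

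All 4 genes for the enzymes that cut the ends of transfer RNAs, counting every subunit, fell, with a median log2 fold change of -1.12, the lowest median of the 6 roles. Mitochondrial RNase P cuts the front end and is built of TRMT10C, HSD17B10 and PRORP. PRORP (ENSG00000100890, chr14:35121846-35277622), its nuclease, had 3.71, 2.78 and 3.73 CPM in indomethacin and 13.1, 9.17 and 10.1 CPM in control. This was the largest fall among the 49 genes, 3.16-fold (-1.66, SE 0.20; edgeR adjusted p = 7.6e-06). TRMT10C, the methyltransferase subunit, had 15.9, 14.0 and 14.5 CPM in indomethacin and 35.6, 28.8 and 33.9 CPM in control (-1.15, SE 0.13; edgeR adjusted p = 2.93e-06). HSD17B10, a dehydrogenase that TRMT10C binds, had 20.6, 25.5 and 24.9 CPM in indomethacin and 51.2, 48.8 and 51.4 CPM in control (-1.09, SE 0.12; edgeR adjusted p = 1.97e-06). Each of the 3 subunits was lower in all indomethacin libraries than in any control library. ELAC2, which cuts the back end of transfer RNAs in mitochondria and nucleus, had 39.4, 46.8 and 42.0 CPM in indomethacin and 80.7, 73.6 and 88.8 CPM in control (-0.92, SE 0.11; edgeR adjusted p = 8.13e-06). Of the exonic bases of PRORP 40.9% overlap a gene on the same strand, ENSG00000258790, which had 14 counts in all libraries together. Another 5.01% overlap PPP2R3C on the opposite strand, which had 1874 counts against 893 of PRORP and did not pass the test (log2 fold change -0.21).

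In RNA stability, tailing and decay 9 of 12 genes fell and 1 rose, with a median log2 fold change of -0.54. SLIRP (ENSG00000119705, chr14:77708071-77761104), which forms a complex with LRPPRC that protects mitochondrial messenger RNAs, had 23.3, 24.4 and 28.8 CPM in indomethacin and 64.5, 58.9 and 62.4 CPM in control (-1.28, SE 0.11; edgeR adjusted p = 3.91e-07). LRPPRC, the large partner, had 259, 226 and 252 CPM in indomethacin and 286, 277 and 278 CPM in control, and its log2 fold change of -0.19 (SE 0.10; edgeR adjusted p = 0.121) did not pass the test. LRPPRC thus lay below control in every library by a small amount, and SLIRP by 2.43-fold. With no filter on low counts LRPPRC passed as lower (adjusted p between 0.0373 and 0.554 over the 14 alternatives).

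The degradosome split in direction. PNPT1 (ENSG00000138035, chr2:55634061-55693863), the exoribonuclease that degrades mitochondrial RNA, had 26.2, 26.9 and 26.6 CPM in indomethacin and 58.5, 53.9 and 54.6 CPM in control (log2 fold change -1.07, SE 0.10; edgeR adjusted p = 8.12e-07). SUPV3L1 (ENSG00000156502, chr10:69180234-69209099), the helicase that unwinds RNA for it, had 35.8, 40.4 and 51.8 CPM in indomethacin and 30.0, 31.5 and 32 CPM in control (0.45, SE 0.13; edgeR adjusted p = 0.00942). PNPT1 was nearly even among the indomethacin libraries, while SUPV3L1 was highest in indomethacin library 3. The call of SUPV3L1 was lost without that library and without control library 1 (adjusted p between 0.00173 and 0.0562 over the 14 alternatives). GRSF1, a protein of the mitochondrial RNA granules, fell by 0.37 on the log2 scale (edgeR adjusted p = 0.0107), and lost its call with upper-quartile scaling and without indomethacin library 2 (adjusted p between 0.000444 and 0.0699 over the 14 alternatives). MTPAP, the polymerase that adds poly(A) tails, fell by 0.57.

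Of the 6 FASTK family proteins, which act on stability and processing of single mitochondrial RNAs, 5 fell. FASTKD3 had 6.46, 5.52 and 5.83 CPM in indomethacin and 14.8, 14.1 and 12.7 CPM in control (log2 fold change -1.22, SE 0.15; edgeR adjusted p = 1.02e-05). FASTKD1 had 24.1, 19.9 and 16.2 CPM in indomethacin and 35.4, 38.5 and 38.7 CPM in control (-0.90, SE 0.14; edgeR adjusted p = 7.25e-05). The groups of both stood apart, though FASTKD1 was uneven among its indomethacin libraries. FASTKD2, which binds the large ribosomal RNA, fell by 0.67 on the log2 scale, FASTKD5, needed at cut sites without a transfer RNA, by 0.51 and TBRG4, also called FASTKD4, by 0.47. FASTK, the founding member, had 27.7, 39.4 and 31.8 CPM in indomethacin and 36.1, 32 and 30.4 CPM in control, with overlapping groups (log2 fold change 0.01, SE 0.14; edgeR adjusted p = 0.974).

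Of the genes for RNA modification and ribosome assembly, 8 of 9 were tested, 6 fell and 1 rose, with a median log2 fold change of -0.52. MTO1 (ENSG00000135297, chr6:73461578-73509236) had the larger of the 2 rises. Its protein pairs with GTPBP3 to add a taurine-containing group to the wobble uridine of several mitochondrial transfer RNAs. MTO1 had 64.1, 68.6 and 71.0 CPM in indomethacin and 33.3, 39.7 and 35.4 CPM in control (0.91, SE 0.11; edgeR adjusted p = 6.1e-06), a 1.88-fold rise without overlap. Of its 13313 exonic bases 119 overlap EEF1A1 on the opposite strand, which had 11971 ± 484 CPM in indomethacin and 10032 ± 533 CPM in control (SD, n = 3 each) and did not pass the test (log2 fold change 0.25). Per kilobase of exon EEF1A1 was at 1190 CPM in indomethacin and 997 CPM in control, against 5.10 and 2.71 CPM for MTO1. The share of MTO1 counts that come from the shared bases was not tested, so the level and the rise of MTO1 are uncertain. GTPBP3 had 10.0, 13.3 and 11.7 CPM in indomethacin and 9.27, 10.4 and 12.1 CPM in control, overlapping groups (log2 fold change 0.14, SE 0.16; edgeR adjusted p = 0.468).

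TRMU, which adds sulphur to the same uridine, had 18.9, 22.6 and 17.7 CPM in indomethacin and 32.2, 27.6 and 32.6 CPM in control (log2 fold change -0.64, SE 0.13; edgeR adjusted p = 0.00067). Thus the counts for enzymes of a single transfer RNA position moved in different directions, MTO1 up and TRMU down. For MTO1 the limit from the bases shared with EEF1A1 applies. DDX28, a helicase of the large ribosomal subunit's assembly, had 9.46, 7.46 and 10.2 CPM in indomethacin and 14.7, 14.5 and 16.1 CPM in control (-0.74, SE 0.15; edgeR adjusted p = 0.000749). MRM3, one of the methyltransferases of the large ribosomal RNA, had 4.80, 5.32 and 4.21 CPM in indomethacin and 7.45, 8.62 and 9.81 CPM in control (-0.85, SE 0.18; edgeR adjusted p = 0.00111). The groups of DDX28 and MRM3 did not overlap, and 32.3% of the exonic bases of MRM3 overlap GLOD4 on the opposite strand, which fell by 0.78. MRM1, a methyltransferase of the same RNA, fell by 0.68 and DHX30, an assembly helicase, by 0.41.

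NSUN4, which methylates the small ribosomal RNA and partners with MTERF4, fell by 0.28 on the log2 scale (edgeR adjusted p = 0.0455) and lost its call under 10 of 14 alternatives, so it stands at the edge of the threshold. MRM2, the remaining methyltransferase of the large ribosomal RNA, had 5, 3 and 2 counts in the indomethacin libraries and 7, 5 and 6 counts in the control libraries, and was not tested. Its exons share 90.9% of their bases with another gene on the same strand, ENSG00000286192, which had 3 counts in all. How reads in shared bases were counted is not given in the sources used here, so the level of MRM2 is uncertain.

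Translation factors were the role with the fewest falls, 3 of 8 (37.5%), near the 31% of all genes tested that were called lower. Their median log2 fold change was -0.13. GFM1 (ENSG00000168827, chr3:158644527-158695581), the elongation GTPase that moves the ribosome along the messenger, had 36.7, 31.6 and 35.0 CPM in indomethacin and 68.7, 66.6 and 61.3 CPM in control (-0.93, SE 0.11; edgeR adjusted p = 4.66e-06). TUFM (ENSG00000178952, chr16:28842411-28846348), which brings transfer RNAs to the ribosome, had 116, 135 and 149 CPM in indomethacin and 226, 238 and 268 CPM in control (-0.87, SE 0.12; edgeR adjusted p = 2.11e-05). The groups of both elongation factors stood apart, and the indomethacin means were 52.5% of the control mean for GFM1 and 54.6% for TUFM. MTRF1L, a release factor, had 13, 10.1 and 11.9 CPM in indomethacin and 15.7, 17.7 and 15.0 CPM in control (-0.47, SE 0.14; edgeR adjusted p = 0.0113), and lost its call without indomethacin library 2 (adjusted p between 0.0015 and 0.0553 over 14 alternatives). Of its exonic bases 37.8% overlap ENSG00000227627 on the opposite strand.

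The factors of initiation and recycling did not pass the test. MTIF2 had a log2 fold change of 0.03 and MTIF3 one of -0.15, both initiation factors, the recycling GTPase GFM2 had 0.14 and the release factor MTRF1 had -0.12. GFM2 had 38.3, 42.1 and 52.2 CPM in indomethacin and 42.0, 40.9 and 37.6 CPM in control, which overlap. TSFM, which recharges TUFM, had 1.33, 0.845 and 0.721 CPM in indomethacin and 0.687, 0.512 and 0.563 CPM in control (log2 fold change 0.73, SE 0.39; edgeR adjusted p = 0.12). These values rest on 95 counts in all, and 67.3% of the exonic bases of TSFM are shared with a gene on the same strand that has no counts, ENSG00000257921, so its level is uncertain.

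Partner genes were then compared within each library, where the scaling between libraries has no part. For 9 pairs the ratio of counts per kilobase was put to an exact permutation test, two-sided, whose smallest p with 3 against 3 libraries is 0.1. For 8 pairs the groups did not overlap and p was at that limit (adjusted p = 0.113 over the 9 pairs), so none can pass a threshold of 0.05. Groups of single genes did not overlap in 67% of all genes tested, and no share was computed for other pairs. The pairs were chosen with earlier results known, so their number is no result about partner genes. These ratios rest on the same counts as the tests above and are no separate evidence. The divisor is the length of all exons listed for a gene, 34689 bases for LRPPRC and 2631 for SLIRP. The size of a ratio therefore depends on those lengths, while its change between groups does not. TFAM per POLRMT was 1.09, 0.592 and 0.813 in indomethacin and 3.21, 2.80 and 2.24 in control, 3.38-fold lower. SUPV3L1 per PNPT1 was 1.69, 1.86 and 2.41 in indomethacin and 0.634, 0.723 and 0.724 in control, 2.83-fold higher. SLIRP per LRPPRC was 1.19, 1.42 and 1.51 in indomethacin and 2.98, 2.81 and 2.96 in control, 2.13-fold lower.

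Those 3 pairs showed the widest gaps, and the helicase outnumbered its nuclease per kilobase in indomethacin libraries while the nuclease was ahead in control. GFM2 per GFM1 was 3.10, 3.96 and 4.42 in indomethacin and 1.82, 1.83 and 1.82 in control, 2.08-fold higher. GTPBP3 per MTO1 was 0.460, 0.571 and 0.483 in indomethacin and 0.817, 0.768 and 1.01 in control, 1.71-fold lower. The pairs PRORP per TRMT10C (1.43-fold lower), TFB2M per TFB1M (1.39-fold higher) and MTRF1L per MTRF1 (1.28-fold lower) differed less. POLG2 per POLG was 0.459, 0.365 and 0.442 in indomethacin and 0.462, 0.474 and 0.394 in control, with overlapping groups (exact permutation p = 0.5).

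**Figure D3:**
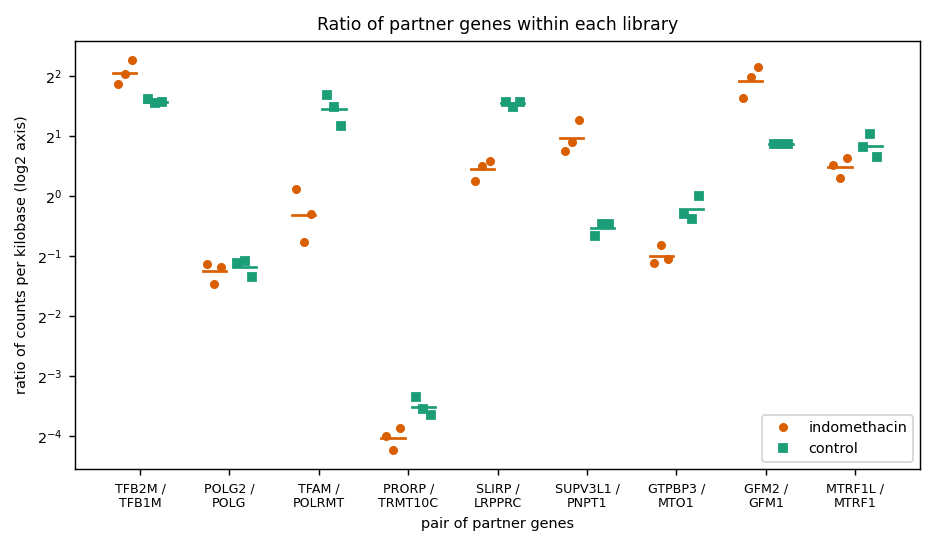
Ratio of the counts per kilobase of 9 pairs of partner genes in each library on a log2 axis, with indomethacin left of control in each pair and a bar at the mean. In 8 pairs the 3 indomethacin and 3 control points do not overlap, and in POLG2 per POLG they do.

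Per kilobase of exon the 49 genes covered a wide range, from TUFM at 60.3 ± 7.49 CPM per kilobase in indomethacin and 110 ± 9.64 in control to TSFM at 0.301 ± 0.10 and 0.183 ± 0.0280 in indomethacin and in control (SD, n = 3 each). The median over the genes was 4.35 CPM per kilobase in indomethacin and 5.56 in control. TUFM led by far per kilobase in both groups. Places between genes depend on the length of all exons listed for each. LRPPRC, with 34689 exonic bases, had the highest mean CPM in control, 280, but was at place 19 there per kilobase. TFAM was at 5.62 ± 0.777 CPM per kilobase in indomethacin, place 21 of 49, and 17.3 ± 0.969 in control, place 6. Its neighbours in the control order, TRMT10C at 17.4 ± 1.87 and SSBP1 at 16.7 ± 1.58, did not differ from it beyond their spread. MTO1 was at 5.10 ± 0.261 CPM per kilobase in indomethacin, place 23, and 2.71 ± 0.242 in control, place 40. SLIRP was at place 10 in indomethacin and place 2 in control. Across the 49 genes the log2 fold change and the log2 control level per kilobase had a Spearman rho of -0.30, a description over genes that share libraries and share the control values on both axes.

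**Figure D4:**
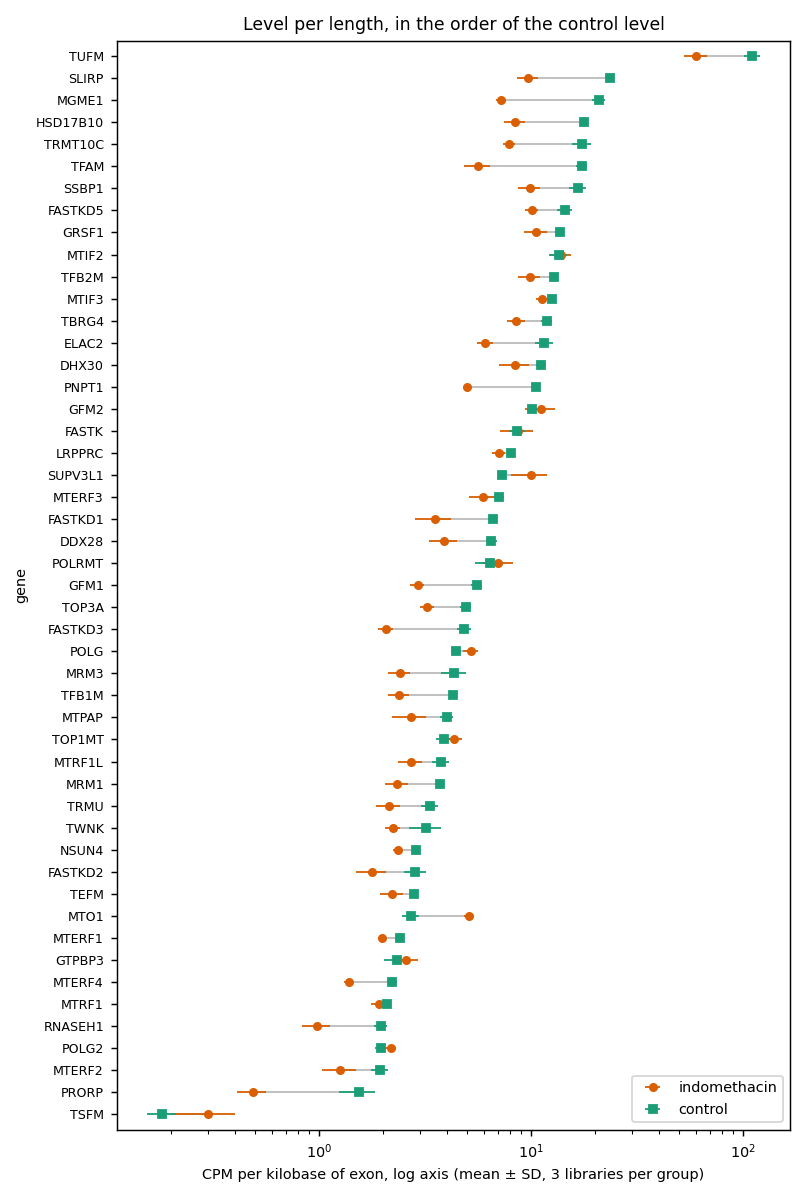
Mean level of each of the 49 genes in CPM per kilobase of exon on a log axis, in the order of the control level, with bars for the SD of 3 libraries per group. Indomethacin points lie left of control for most genes, furthest for TFAM, MGME1, SLIRP and PRORP. They lie furthest right of it for MTO1, SUPV3L1 and TSFM, and less far right for some others, POLG and GFM2 among them.

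Other genes of the same pathways, listed by their roles, were counted in the same fit. Of 24 further genes for mitochondrial DNA upkeep and nucleotide supply 11 fell and 4 rose, with a median log2 fold change of -0.35. Those falls are 45.8%, against 31% of all genes tested. The uracil glycosylase UNG, which repairs DNA in nucleus and mitochondria, averaged 3.36 ± 0.274 CPM in indomethacin and 31.7 ± 4.27 CPM in control (-3.24, SE 0.16; edgeR adjusted p = 1.4e-09). ABAT, a transaminase with a part in nucleotide supply, fell by 2.49 and DNA2, a nuclease and helicase of replication, by 2.15. The thymidine phosphorylase TYMP rose, at 37.3 ± 5.04 CPM in indomethacin and 5.25 ± 0.401 CPM in control (2.83, SE 0.14; edgeR adjusted p = 2e-09), as did the pyrimidine carrier SLC25A36 (1.62) and LONP1, a protease of the mitochondrial matrix (1.05).

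Of 33 further RNA processing and modification genes tested 22 fell and 2 rose, with a median of -0.42. C1QBP (-1.44), a matrix protein, RCC1L (-1.07), of pseudouridine formation and ribosome assembly, and TRIT1 (-1.07), which modifies transfer RNAs, had the smallest adjusted p among the falls, and the transfer RNA genes TRMT1 (0.76) and YRDC (0.88) rose. Of 18 further genes of ribosome assembly and translation 8 fell (44.4%, against 31% of all genes tested) and none rose, with a median of -0.24. The falls with the smallest adjusted p were GATB (-1.27), ERAL1 (-0.90) and QRSL1 (-0.69). GATB and QRSL1 are subunits of the enzyme that completes glutaminyl transfer RNA, and ERAL1 is a chaperone of the small ribosomal RNA. Of 18 aminoacyl-tRNA synthetases tested 14 fell and 2 rose, with a median of -0.56. LARS2 (-1.57) and EARS2 (-1.13) fell, and GARS1 (1.39), which also serves the cytosol, and PARS2 (0.45) rose. Of 80 ribosomal protein genes tested 58 fell and 2 rose, with a median of -0.60. MRPL16 (-2.21), MRPL40 (-1.55) and MRPL27 (-1.40) fell, and MRPS6 (1.37) and MRPL10 (0.53) rose. In the first 3 of these lists together 41 of 75 genes tested fell, which is 54.7%, against 65.3% of the 49 genes, a difference that was not tested.

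**Figure D5:**
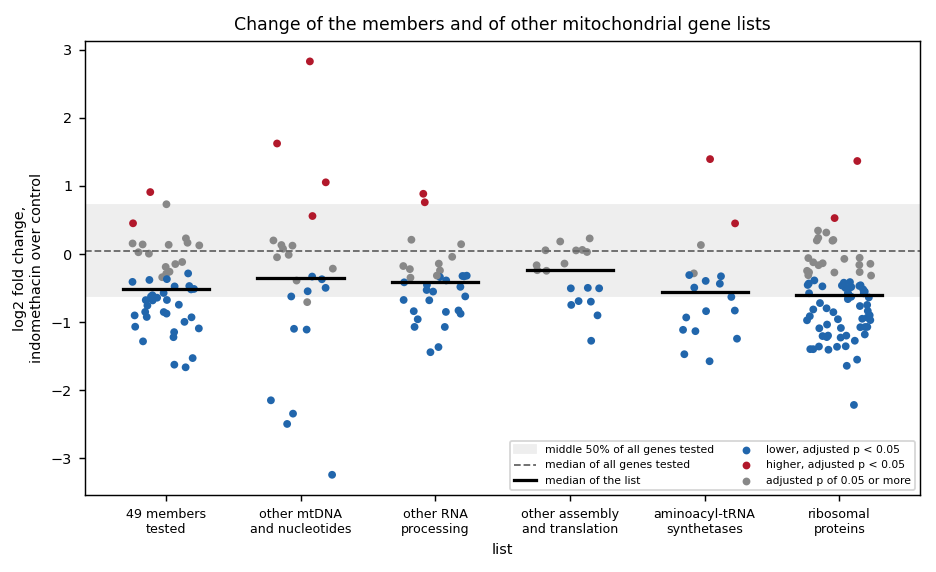
Log2 fold change, indomethacin over control, of the 49 genes and of 5 further lists of mitochondrial genes, each point 1 gene coloured by its call and each bar the median. The medians of all 6 lists lie below the median of all genes tested, which is 0.04, and the band is the middle 50% of all genes.

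Messenger RNAs of the mitochondrial genome, a small part of its counts and of the RNA that these proteins handle, were lower too. All genes of that genome together held 16.7% to 19.7% of the counts in indomethacin and 22.8% to 26.8% in control. Of the 13 messenger RNAs of the mitochondrial genome 12 fell, with a median log2 fold change of -1.98, and MT-ND4L did not pass the test (-0.49; edgeR adjusted p = 0.0515). Together they summed to 850, 1206 and 1918 CPM in the indomethacin libraries, against 7716, 7264 and 7375 CPM in the control libraries. Indomethacin library 3 was the highest of its group here, as it was for SUPV3L1 and GFM2, and library 2 was the lowest for TFAM, PRORP and TFB1M. The link between the genes above and these messenger RNAs was not tested.

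Exon sharing limits several of these values, since the strand setting of the counting is not given in the sources used here. Exons of 27 of the 50 genes overlap another gene's exons, 22 a gene with counts and 18 a gene on the opposite strand with counts. Without the members that overlap a gene with counts, 28 genes remained, of which 17 fell and 1 rose, with a median log2 fold change of -0.43. The gene that rose there was SUPV3L1, since MTO1 overlaps EEF1A1 and is not in that set. Counts on pseudogenes named after the genes were few beside those of the genes, at most 93, on POLRMTP1, against 4155 on POLRMT.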

How the data were processed

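Total RNA of AGS cells was depleted of ribosomal RNA and sequenced as pairs with a stranded kit, per the labels' protocols. FastQC 0.11.7, cutadapt 1.16, HISAT2 2.1.0, SAMtools, featureCounts, DESeq2 and build hg38 are named in the submitters' processing notes, without order or settings. The deposited values are the authors' raw counts per gene, with exon coordinates, per the file headers. The annotation release, the strand setting and the treatment of reads with several matches are not given in the sources used here, so genes that share exons or have near-identical copies are uncertain.

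Of 60607 lines in each count file, 3 were broken, all of 1 gene that is no member, and were left out. Gene symbols were looked up in a name table, which held 60462 of 60604 identifiers. The floor for a gene without counts, 3 counts, was 0.129 to 0.171 CPM per library and stands for counting error alone. Within groups no library matched another to within sampling noise, with a chi-square of 6.99 to 21.9 per degree of freedom, and all 6 entered the fit.

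After filterByExpr and TMM scaling, the quasi-likelihood test of edgeR 4.0.16 (R 4.3.3) was run with group as the only term and Benjamini-Hochberg adjustment over all 17200 genes tested, threshold 0.05. Standard errors were computed from the fold change and its test statistic. Levels are CPM computed from the counts with TMM factors, as mean ± SD (n = 3), and levels per kilobase use the deposited exon length. Simulated data were drawn from the control levels and depths of these libraries, with a dispersion common to all genes. For the indomethacin against control comparison 15990 genes were tested there, and only 67, 67 and 66 genes were changed, by 1.5-, 2- and 4-fold. Of these, edgeR found 40.3%, 88.1% and 100% in that order, and 9 of 161 calls were false. In the data 61.6% of the genes tested were called, so these shares are not the sensitivity of the calls reported here. Motifs were matched as exact letters on both strands of RefSeq windows.

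All members are named. Per-library values are given for the 4 members of each role with the smallest adjusted p, for TFAM and POLRMT, for the member under the filter and, chosen after their values were seen, for LRPPRC, SUPV3L1, FASTK, GTPBP3 and GFM2. Of other lists up to 3 genes with the smallest adjusted p in each direction are named, and a few genes that are no members are not reported here. The members, lists and tests were chosen with earlier results of these data known. Alternatives were DESeq2 1.42.0, limma-voom (limma 3.58.1), RLE and upper-quartile factors, removal of mitochondrial genome counts, no filter, a filter of 1 CPM in 3 libraries, the replicate number as a block, each library left out, and only members whose exons overlap no gene with counts.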

Additional observations from a re-analysis of the deposited data

How the results depend on the processing

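DESeq2, limma-voom, RLE factors, removal of mitochondrial genome counts, the filter of 1 CPM, the replicate block and the libraries left out gave 27 to 33 members lower. With upper-quartile factors 4 members were called higher and the median log2 fold change of the members was -0.40, while the median of all genes moved by 0.12 and the members lay 0.56 below it, as in the values reported. The share of higher calls among all genes called was 56.7% there, against 49.7%. With no filter on low counts the median of the members was -0.65, with MRM2 among them, and the median of all genes moved by 0.15. Leaving out each library in turn gave 1 to 2 members higher, 27 to 33 lower and a median of -0.60 to -0.52, with 1 higher without control library 1 and without indomethacin library 3, each time MTO1. The 28 members that overlap no gene with counts held 1 higher and 17 lower, with a median of -0.43, by construction a smaller set. The higher member was SUPV3L1, and MTO1 was not in that set.

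MTO1 and 27 of the 32 members that fell kept their call under all 14 refits. No refit changed how reads in shared bases were counted, such as those of MTO1 and EEF1A1. NSUN4, TFB2M, GRSF1, MTERF2, MTRF1L and SUPV3L1 lost theirs under at least 1, POLG, TOP1MT, TEFM, MTERF3 and LRPPRC gained one under at least 1, and the cause was not tested. No member changed direction with a call. TSFM gave no value under the filter of 1 CPM.

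Libraries of the 2 groups share replicate numbers, but same-numbered libraries deviated together with correlations of only 0.0233, 0.0117 and 0.132 across genes. No strong pairing shows in these values, which cannot tell whether same-numbered libraries were prepared together. Not every library correlated best with its own number. With the replicate number as a block 10601 genes were called, 31 members were lower and 2 higher, with a median of -0.51.

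On simulated data of this depth 40.3% of the genes changed 1.5-fold were recovered, and smaller changes were not simulated. Far fewer genes changed there than the 61.6% called in the data, so that share is not the sensitivity of the calls here. In the data 10 members were called with changes under 1.5-fold. A missed call still does not show that a member is unchanged. MRM2 has 28 counts and was not tested, and TSFM has 95 counts and the SE of 0.39 given above.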
